A study of Mus musculus with 9 samples.

Results

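The Ly6 family surface proteins followed here were encoded by 7 genes, Ly6a, Ly6c1, Ly6c2, Ly6d, Ly6e, Ly6k and Lynx1. They were taken by symbol from the 24060 genes of the deposited RNA-seq table, with earlier results of these data known. All 7 passed the filter on low values, a TPM (a share of the transcripts of a sample, corrected for gene length) over 1 in at least 1 sample, which left 12115 genes. The samples were sorted CD3+ CD8+ T cells that bound the Rop7 tetramer of H-2Ld, from the transnuclear mouse strains Rop7-I, Rop7-II and Rop7-III, with 3 biological replicates of each and 9 samples in all. A transnuclear strain is made by transfer of the nucleus of a T cell, so that its T cells share the receptor of that cell, here specific for an epitope of Toxoplasma gondii. The cells of all strains had spent a night in medium with IL-2 (10 ng per ml) and had met no antigen. Each receptor was represented by a single mouse strain, so that effects of the receptor and of other differences between the strains cannot be told apart. The labels do not say whether the replicates of a strain came from separate mice, and the p values measure the spread between these samples. The table holds no read counts, so that no counting error could be given for a TPM value.

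Ly6 proteins share a compact, disulfide-bonded fold of finger-like loops, and most are held at the cell surface by a glycosylphosphatidylinositol (GPI) anchor. Several are familiar markers of haematopoietic cells, and the expression of some of them rises with interferon or with T-cell activation. On CD8 T cells, surface Ly6C is abundant on memory cells and, among naive cells, has been used as a mark of low reactivity to self, whereas CD5 is used as a mark of high self-reactivity.

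The labelled cell type was checked first, with 7 markers of CD8 T cells. The genes of the T-cell receptor complex and of CD8 were abundant in every sample, with Cd3e between 637 and 732 TPM and Cd8b1, the most abundant of them, between 2052 and 2386 TPM. None of the 7 was called in limma in any pair. An unadjusted p under 0.05 was held by 5, 3 and 5 for Rop7-III against Rop7-II, Rop7-III against Rop7-I and Rop7-I against Rop7-II. The share of all tested genes under it was 37.8%, 28.0% and 32.1%. The 7 were led by Cd2, an adhesion receptor, Cd8a, a chain of CD8, and Lck, a kinase of receptor signalling. For Rop7-III against Rop7-II the log2 fold change in limma was 0.54 for Cd2 (adjusted p = 1.52e-05) and -0.39 for Cd8a (adjusted p = 2.05e-04), both under 2-fold. The CD4 T-cell markers summed to 19.1 TPM in Rop7-II replicate 1 and to between 2.39 and 5.37 TPM in the other samples. Rop7-II replicate 1 stood apart from the other samples in markers of other cells. All 10 B-cell markers and all 7 myeloid markers had their highest value of the 9 samples there, and none of these 17 genes was at 0 in any sample. The B-cell markers summed to 782 TPM in Rop7-II replicate 1, to 75.0 and 78.8 TPM in replicates 2 and 3 of that clone, to 140, 355 and 252 TPM in Rop7-I replicates 1 to 3 and to 58.2, 116 and 73.7 TPM in those of Rop7-III. The most abundant of them, Cd79b, a chain of the B-cell receptor, stood at 245 TPM in Rop7-II replicate 1 and at between 22.6 and 116 TPM in the other samples. The myeloid markers summed to 743, 152 and 299 TPM in Rop7-II replicates 1 to 3, against between 141 and 223 TPM in the samples of the other clones. Lyz2, which encodes lysozyme of myeloid cells, accounted for most of the difference, with 485, 35.0 and 161 TPM in Rop7-II and between 19.8 and 83.4 TPM elsewhere.

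Among the Ly6 genes, Ly6e was by far the most abundant. Its mean over the 9 samples was 97.4 TPM, with 1980 genes of the table above it, and it made up between 69.0% and 89.4% of the summed TPM of the 7 genes in a sample. Ly6d followed with a mean of 10.7 TPM, set by a single sample, and the median of its 9 values was 3.85 TPM. The means of the other 5 genes lay close together, at 3.65 TPM for Ly6a, 3.25 TPM for Ly6c2, 2.52 TPM for Ly6k, 1.96 TPM for Ly6c1 and 1.85 TPM for Lynx1. These low levels were spread over samples from 0 to at most 8.91 TPM, and the order among the 5 genes is not separated by that spread.

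**Figure D1:**
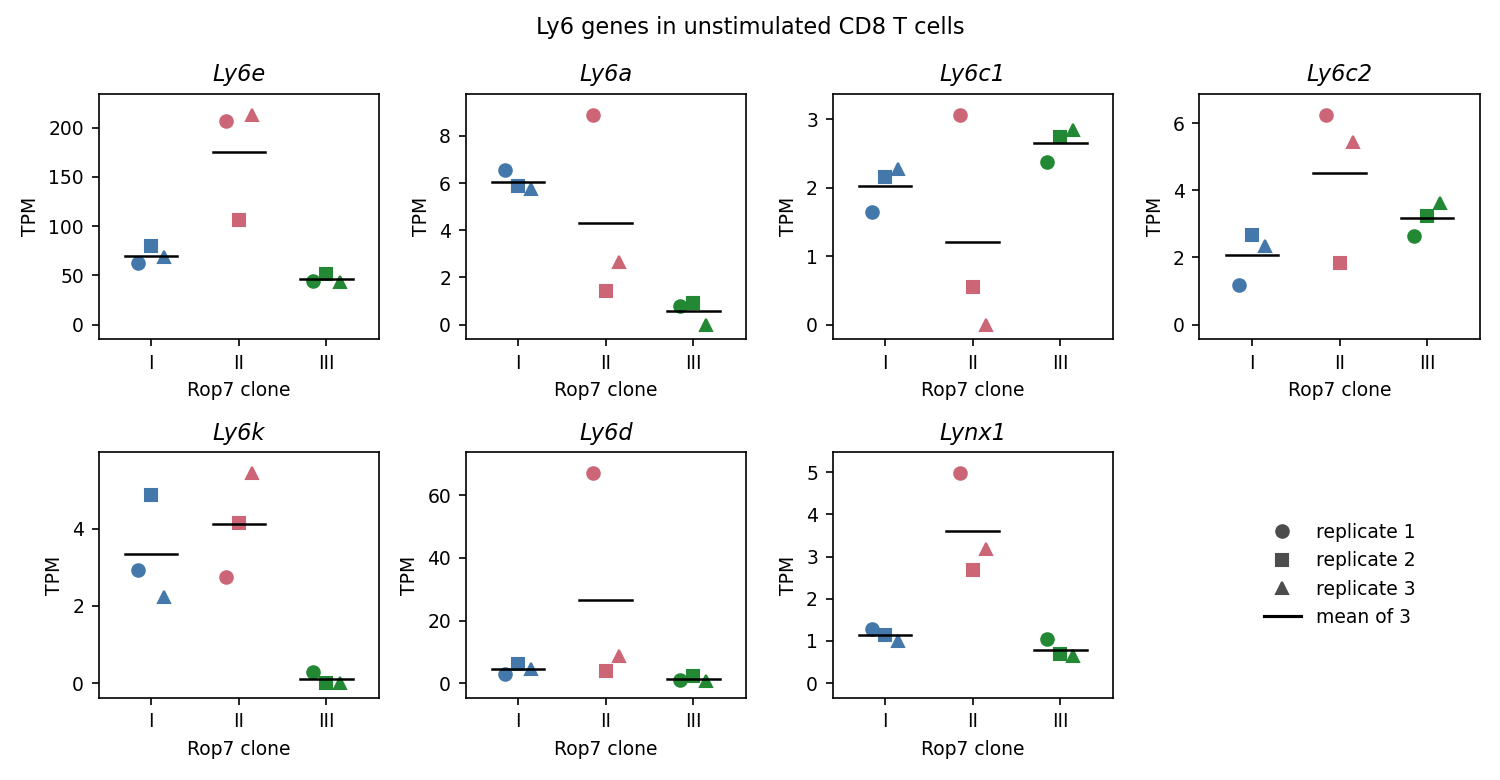
TPM of the 7 Ly6 genes (vertical axes, linear, with a scale for each gene) in the 3 samples of each clone (horizontal axes); symbols stand for replicates and bars for the mean of 3. Ly6e is highest in all 3 Rop7-II samples, Ly6k and Ly6a lie below 1 TPM in all 3 Rop7-III samples, and Ly6d stands at 67.1 TPM in a single Rop7-II sample.

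A gene was called when limma gave a Benjamini-Hochberg adjusted p under 0.01 over all tested genes and the clones differed at least 2-fold on the log2(TPM + 1) scale. Between Rop7-III and Rop7-II, 3 of the 7 genes were called, Ly6e, Ly6k and Lynx1, all of them lower in Rop7-III. Of all tested genes, 1.7% were called in this comparison. Between Rop7-III and Rop7-I only Ly6k was called, again lower in Rop7-III, against 1.06% of all tested genes. Between Rop7-I and Rop7-II, Ly6e and Lynx1 were called, both lower in Rop7-I, against 0.949% of all tested genes. The median log2 fold change of the 7 genes was -1.56, -0.58 and -0.77 in these comparisons, and that of all tested genes was -0.02, 0.00 and -0.01. The first and the last median of the 7 depended on a single library, Rop7-II replicate 1. Without it the middle member for Rop7-III against Rop7-II was Lynx1, at -1.14. Without Rop7-II replicate 1 the members for Rop7-I against Rop7-II ran from -1.10 for Ly6e to 1.27 for Ly6c1, with Ly6k in the middle at -0.45. The 3 comparisons share samples pair by pair, so that their values are given side by side and not as separate evidence. In the F test across the 3 clones, Ly6k, Ly6e and Lynx1 had an adjusted p under 0.01, as had 14.1% of all tested genes.

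**Figure D2:**
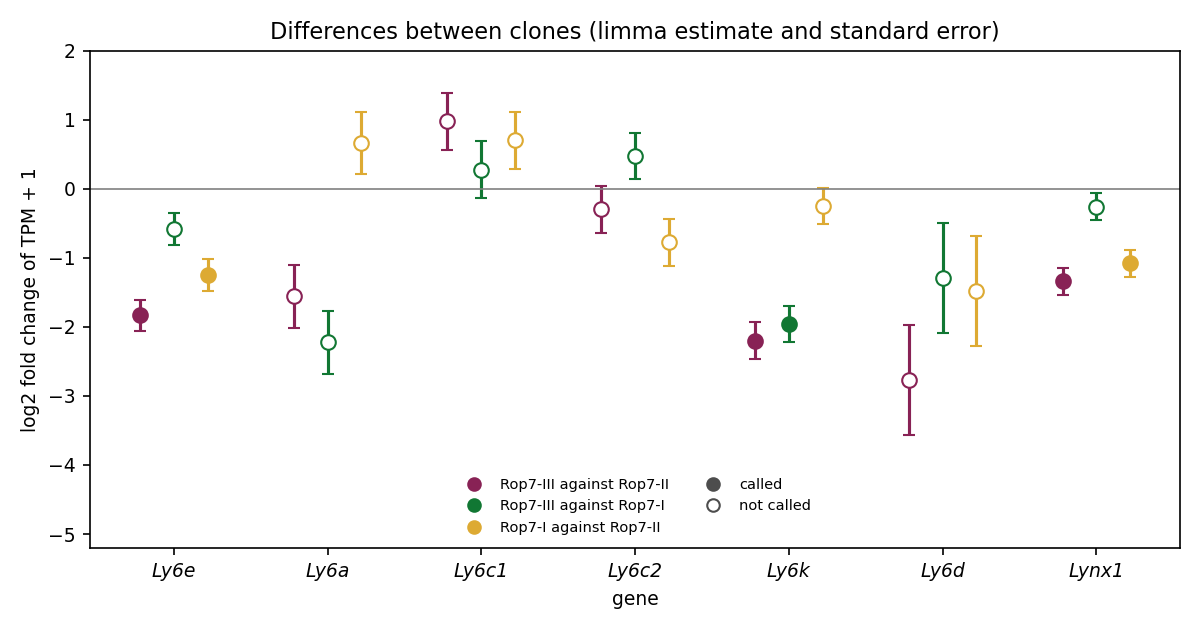
Log2 fold change of TPM + 1 (vertical axis) of each Ly6 gene (horizontal axis) in the 3 pairs of clones, as estimated by limma with its standard error (bars); filled points were called and open points were not. Ly6e, Ly6k and Lynx1 lie below 0 with filled points for Rop7-III against Rop7-II, while Ly6c1 and Ly6c2 have open points throughout.

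The ranges of the clones failed to overlap for 5, 5 and 2 of the 7 genes in the 3 comparisons. Every Rop7-III sample lay below every Rop7-II sample for 5 of the 7 genes, all but Ly6c1 and Ly6c2. Of all tested genes, 40.7% did not overlap in either direction, and 2563 of the 12115 lay below. Between Rop7-III and Rop7-I, 5 genes did not overlap, 4 of them lower in Rop7-III and Ly6c1 higher. This was so for 38.2% of all tested genes, 2390 of them lower and 2235 higher. Between Rop7-I and Rop7-II only Ly6e and Lynx1 did not overlap, both lower in Rop7-I, beside 35.0% of all tested genes, 2239 of them lower.

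Ly6e, an interferon-inducible protein that was first described on thymocytes, stood at 62.2, 79.9 and 68.2 TPM in Rop7-I replicates 1 to 3. It reached 207, 106 and 213 TPM in those of Rop7-II. In Rop7-III it stood at 44.5, 51.6 and 43.1 TPM. The clones thus followed each other without overlap, with Rop7-II highest and Rop7-III lowest, although Rop7-II replicate 2 stood closer to the Rop7-I samples than to the others of its clone. The means were 70.1 ± 8.998 TPM for Rop7-I, 176 ± 59.9 TPM for Rop7-II and 46.4 ± 4.53 TPM for Rop7-III (SD, n = 3 each). The log2 fold change of Rop7-III against Rop7-II was -1.83 (standard error 0.23, adjusted p = 5.95e-04), and it was called under all 19 alternatives run for it, at an adjusted p of at most 0.00623. That of Rop7-I against Rop7-II was -1.25 (standard error 0.23, adjusted p = 0.00642). This second call was lost in 8 of 9 fits that left out 1 sample, with an adjusted p of up to 0.0313, and was kept without Rop7-II replicate 2 (adjusted p = 5.79e-05). Between Rop7-III and Rop7-I the difference was -0.58 (standard error 0.23, adjusted p = 0.137). The sum of the myeloid markers was also higher in Rop7-II replicates 1 and 3 than in replicate 2. Of these markers, Lyz2, Csf1r, Cd68, Itgam, Fcer1g and Cd14 were each higher in replicate 3 than in replicate 2. Lyz2 stood at 161 TPM in replicate 3 and at 35.0 TPM in replicate 2. Cst3 alone was not higher in replicate 3, at 158, 101 and 98.2 TPM in replicates 1 to 3. In replicate 2 the sums of the B-cell and myeloid markers lay within the range of the other clones, and that of the neutrophil markers, at 20.6 TPM, was above all of their samples. The part of other cells in the level of Ly6e was not tested.

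Ly6a encodes Sca-1, a marker of haematopoietic stem cells that is also carried by activated T cells. It stood at 6.54, 5.87 and 5.76 TPM in Rop7-I replicates 1 to 3. In Rop7-II it spread over 8.91, 1.42 and 2.65 TPM. In Rop7-III it stood at 0.81 and 0.90 TPM in replicates 1 and 2 and was listed at 0 in replicate 3. All Rop7-III samples therefore lay below all others, the Rop7-I samples were close together, and the Rop7-II samples reached both above and below Rop7-I. The means were 6.06 ± 0.422 TPM for Rop7-I, 4.33 ± 4.02 TPM for Rop7-II and 0.570 ± 0.496 TPM for Rop7-III (SD, n = 3 each). With all 9 samples the spread within Rop7-II entered the error of every comparison, and Ly6a was not called. Its log2 fold change of Rop7-III against Rop7-I was -2.22 (standard error 0.45, adjusted p = 0.0134). It was called in this comparison without Rop7-II replicate 1 (adjusted p = 9.59e-04), without Rop7-II replicate 2 (adjusted p = 0.00650), with sample weights (adjusted p = 0.00187) and in a fit of only Rop7-I and Rop7-III (adjusted p = 0.00170). Over all alternatives the adjusted p ran from 9.59e-04 to 0.0589. Against Rop7-II the log2 fold change of Rop7-III was -1.56 (standard error 0.45, adjusted p = 0.0342). It fell short of 2-fold without Rop7-II replicate 1, at -0.98 (adjusted p = 0.0409, from a range of 0.0104 to 0.116 over all alternatives).

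Ly6c1 and Ly6c2 together encode Ly6C, which marks inflammatory monocytes and memory CD8 T cells. The pair are near copies. Their longest coding transcripts in the GENCODE annotation of GRCm38 (mm10) were identical at 97.6% of 822 aligned bases, and 10.1% of the 100-base windows of the Ly6c1 transcripts and 14.9% of those of the Ly6c2 transcripts occurred in another gene, for the most part in each other. Ly6a was the next closest relative, at 84.2% identity with Ly6c1 and 82.9% with Ly6c2, while the other 18 pairs of members aligned at between 47.5% and 50.8%. Reads of 100 bases can thus be split between the copies by the counting, and the values of Ly6c1 and Ly6c2 are uncertain taken singly.

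Promoter windows were found for these 2 of the 7 genes in the RefSeq promoter table of GRCm38.p6, each with 2 annotated starts, and Ly6a, Ly6d, Ly6e, Ly6k and Lynx1 were not matched. The first window of each gene is printed below because it shows how far the copies have diverged around the start, both on the minus strand of chromosome 15, at chr15:75048788-75049087 for Ly6c1 and at chr15:75111922-75112221 for Ly6c2. Each runs from 250 bases before the annotated start to 50 bases after it, and as the RefSeq genes reach further than this start, the windows mix sequence before and within the genes. Capitals mark bases that differ from the other copy or have no partner in it, over the stretch in which the windows overlap.
Ly6c1: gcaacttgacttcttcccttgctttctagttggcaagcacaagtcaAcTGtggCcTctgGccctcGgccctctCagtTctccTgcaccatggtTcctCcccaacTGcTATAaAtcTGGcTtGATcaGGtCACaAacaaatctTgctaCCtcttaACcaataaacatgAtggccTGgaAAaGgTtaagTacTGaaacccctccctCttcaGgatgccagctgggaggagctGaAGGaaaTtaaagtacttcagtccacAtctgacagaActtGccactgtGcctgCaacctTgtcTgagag
Ly6c2: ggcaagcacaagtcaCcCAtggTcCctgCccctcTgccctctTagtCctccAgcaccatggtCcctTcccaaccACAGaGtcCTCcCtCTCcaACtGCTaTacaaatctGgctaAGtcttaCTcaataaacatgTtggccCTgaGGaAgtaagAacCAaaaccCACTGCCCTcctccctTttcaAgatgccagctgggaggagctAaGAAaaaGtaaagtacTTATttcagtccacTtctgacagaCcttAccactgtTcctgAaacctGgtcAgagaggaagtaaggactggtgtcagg
Over that stretch 208 bases were identical, 73.8% of the aligned positions with gaps counted. Both windows of both genes were searched on both strands for TTCNNNGAA, a pattern of cytokine-responsive promoters, and for GAAANNGAA, the core of the interferon response element. Neither pattern occurred in any of the 4 windows. They occurred in 8.3% and 8.56% of the 32851 promoter windows of 300 bases in the table.

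Ly6c1 stood at 1.64, 2.15 and 2.28 TPM in Rop7-I replicates 1 to 3. In Rop7-II it stood at 3.07 and 0.55 TPM in replicates 1 and 2 and was listed at 0 in replicate 3. In Rop7-III it stood at 2.37, 2.74 and 2.84 TPM. The Rop7-III samples lay above those of Rop7-I by a narrow gap, and the Rop7-II samples reached above and below both. The log2 fold change was 0.98 for Rop7-III against Rop7-II (standard error 0.41, adjusted p = 0.117) and 0.28 for Rop7-III against Rop7-I (standard error 0.41, adjusted p = 0.713). Single Rop7-II samples moved the first of these. It was 0.54 (adjusted p = 0.309) without replicate 3, in which Ly6c1 was listed at 0. Replicate 1 was the sample with the most B-cell and myeloid markers. Without Rop7-II replicate 1, Ly6c1 was called higher for Rop7-III against Rop7-II, with a log2 fold change of 1.55 (adjusted p = 0.00104, from a range of 0.00104 to 0.309 over all alternatives). For Rop7-I against Rop7-II the log2 fold change of Ly6c1 was 0.70 with all 9 samples (standard error 0.41, adjusted p = 0.281). It was 0.26 without Rop7-II replicate 3 (adjusted p = 0.671). Without Rop7-II replicate 1 it was called higher in this pair as well, at 1.27 (adjusted p = 0.00421, from a range of 0.00421 to 0.671).

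Ly6c2 stood at 1.17, 2.68 and 2.33 TPM in Rop7-I replicates 1 to 3. In Rop7-II it stood at 6.26, 1.85 and 5.43 TPM. In Rop7-III it stood at 2.65, 3.25 and 3.61 TPM. The ranges of all 3 clones overlapped, and the highest values were in the Rop7-II samples with the most myeloid markers, whose part was not tested. The log2 fold changes were -0.30 for Rop7-III against Rop7-II (standard error 0.34, adjusted p = 0.548), 0.48 for Rop7-III against Rop7-I (standard error 0.34, adjusted p = 0.398) and -0.77 for Rop7-I against Rop7-II (standard error 0.34, adjusted p = 0.148). It was not called under any alternative, although single samples moved it. The value for Rop7-III against Rop7-II was -0.04 without Rop7-II replicate 1 (adjusted p = 0.942) and -0.72 without Rop7-II replicate 2 (adjusted p = 0.0515, from a range of 0.0515 to 0.942 over all alternatives). For Rop7-I against Rop7-II it reached -1.19 without Rop7-II replicate 2 (adjusted p = 0.0108, from a range of 0.0108 to 0.379).

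Because of the shared sequence, both genes were also summed, with no test. The sum was 2.81, 4.83 and 4.61 TPM in Rop7-I replicates 1 to 3, 9.33, 2.40 and 5.43 TPM in those of Rop7-II, and 5.02, 5.99 and 6.45 TPM in those of Rop7-III. The means were 4.08 ± 1.11, 5.72 ± 3.47 and 5.82 ± 0.730 TPM (SD, n = 3 each). Rop7-III lay above Rop7-I in every sample, and Rop7-II spanned the range of both. The listed split between the copies also differed, with Ly6c2 making up between 41.6% and 56.0% of the sum in Rop7-I and Rop7-III and 67.1%, 77.1% and 100% in Rop7-II replicates 1 to 3. This split was not tested and is uncertain, as the counting can divide reads between the copies. The 100% came from a sample with Ly6c1 listed at 0. For comparison, Cd5 stood at 72.9, 71.5 and 58.5 TPM in replicates 1 to 3 of Rop7-I, at 33.4, 52.9 and 37.9 TPM in those of Rop7-II and at 176, 181 and 175 TPM in those of Rop7-III. Nr4a1, an immediate early gene of T-cell receptor signalling, had means of 4.07 ± 1.16, 4.49 ± 4.52 and 3.41 ± 1.12 TPM in Rop7-I, Rop7-II and Rop7-III T cells (SD, n = 3 each) and was not called in any pair. Its Rop7-II samples stood at 9.70, 1.59 and 2.19 TPM, so that the mean of that clone rested on replicate 1. The summed Ly6C transcripts and Cd5 were both higher in Rop7-III than in Rop7-I in every sample. Where Rop7-II stood in the order of the Ly6C sum rested on replicate 1, without which its remaining samples, 2.40 and 5.43 TPM, lay on both sides of the Rop7-I mean. Surface Ly6C was not measured in these data.

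Ly6k, which is best known for a role in sperm function, was the gene with the smallest adjusted p of the 7 in the comparison of Rop7-III with either other clone. It stood at 2.94, 4.88 and 2.23 TPM in Rop7-I replicates 1 to 3. In Rop7-II it stood at 2.75, 4.15 and 5.44 TPM. In Rop7-III it was at 0.29 TPM in replicate 1 and was listed at 0 in replicates 2 and 3. All 6 samples of Rop7-I and Rop7-II were thus above 2 TPM, with ranges that overlapped, and all 3 of Rop7-III were close to 0. The means were 3.35 ± 1.37 TPM for Rop7-I, 4.11 ± 1.35 TPM for Rop7-II and 0.0967 ± 0.167 TPM for Rop7-III (SD, n = 3 each). The log2 fold change was -2.20 against Rop7-II (standard error 0.26, adjusted p = 4.30e-04) and -1.95 against Rop7-I (standard error 0.26, adjusted p = 0.00168). Against Rop7-II it was called under all 18 alternatives run for it, with log2 fold changes from -4.69 to -2.01. The steepest came from adding 0.1 TPM in place of 1, since the Rop7-III values are close to 0 and the size of the fold rests on the TPM added. Against Rop7-I the call was lost by a narrow margin without Rop7-I replicate 1 (adjusted p = 0.0104), Rop7-III replicate 2 (0.0111) or Rop7-III replicate 3 (0.0109), and the adjusted p over all alternatives ran from 4.24e-04 to 0.0111. Between Rop7-I and Rop7-II the difference was -0.24 (standard error 0.26, adjusted p = 0.575).

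Ly6k lies on the minus strand, and the GENCODE annotation places an antisense gene, Gm17189, across the whole of it on the plus strand, from 74784065 to 74800640 on chromosome 15. Of the 100-base windows of the Ly6k transcripts, 18.5% also occurred in the transcript of Gm17189 when both strands were read. The library did not keep the strand, so that reads of Ly6k and of this antisense gene cannot be told apart in the shared stretch. Gm17189 is not among the genes of the table. None of the windows of Ly6d, Ly6e or Lynx1 occurred in another gene, and 1.45% of those of Ly6a did.

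Lynx1, a GPI-anchored modulator of nicotinic acetylcholine receptors in neurons, stood at 1.28, 1.14 and 0.99 TPM in Rop7-I replicates 1 to 3. In Rop7-II it stood at 4.98, 2.68 and 3.18 TPM. In Rop7-III it stood at 1.05, 0.69 and 0.64 TPM. All Rop7-II samples lay above all others, and Rop7-I and Rop7-III overlapped. The highest value was in Rop7-II replicate 1, where all B-cell and myeloid markers were highest. The neutrophil markers also summed to more in every Rop7-II sample, at 51.2, 20.6 and 47.6 TPM, than in the other clones, at most at 19.7 TPM. The part of other cells in the level of Lynx1 was not tested. The means were 1.14 ± 0.145, 3.61 ± 1.21 and 0.793 ± 0.224 TPM (SD, n = 3 each). The log2 fold change of Rop7-III against Rop7-II was -1.34 (standard error 0.19, adjusted p = 0.00127), which was called under all 18 alternatives run for it. That of Rop7-I against Rop7-II was -1.08 (standard error 0.19, adjusted p = 0.00579), close to the 2-fold limit, and the call was lost in 7 of 9 fits that left out 1 sample. Without Rop7-II replicate 1 it stood at -0.88 (adjusted p = 0.00657, from a range of 0.00257 to 0.0243 over all alternatives). Rop7-III and Rop7-I differed by -0.26 on the log2 scale (standard error 0.19, adjusted p = 0.428).

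Ly6d, which marks the earliest B-lineage progenitors and is also made by keratinocytes, stood at 2.76, 6.13 and 4.38 TPM in Rop7-I replicates 1 to 3. In Rop7-II it stood at 67.1, 3.85 and 8.53 TPM. In Rop7-III it stood at 0.98, 2.15 and 0.59 TPM. A single sample, Rop7-II replicate 1, was thus far above the rest, and it was the sample in which all B-cell and myeloid markers were highest. The Rop7-III samples lay below all others. The log2 fold change of Rop7-III against Rop7-II was -2.77 (standard error 0.80, adjusted p = 0.0327) and was not called. It was called without Rop7-II replicate 2, at -3.57 (adjusted p = 0.00895, from a range of 0.00895 to 0.102 over all alternatives), and stood at -1.66 (adjusted p = 0.0162) without Rop7-II replicate 1. With all 9 samples it was -1.29 for Rop7-III against Rop7-I (adjusted p = 0.333) and -1.48 for Rop7-I against Rop7-II (adjusted p = 0.237). That last value was -0.37 without Rop7-II replicate 1 (adjusted p = 0.547) and -2.28 without Rop7-II replicate 2 (adjusted p = 0.0645, from a range of 0.0645 to 0.547 over all alternatives). Within Rop7-I and Rop7-III the sample of a clone with the highest sum of B-cell markers, replicate 2 of each, also had the highest Ly6d. Rop7-II replicate 3 had more Ly6d than any sample of Rop7-I at a lower sum of B-cell markers, 78.8 TPM, and at the second highest sum of myeloid markers. The part of other cells in the level of Ly6d was not tested, and in bulk RNA fewer cells of a type and less RNA per cell cannot be told apart.

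**Figure D3:**
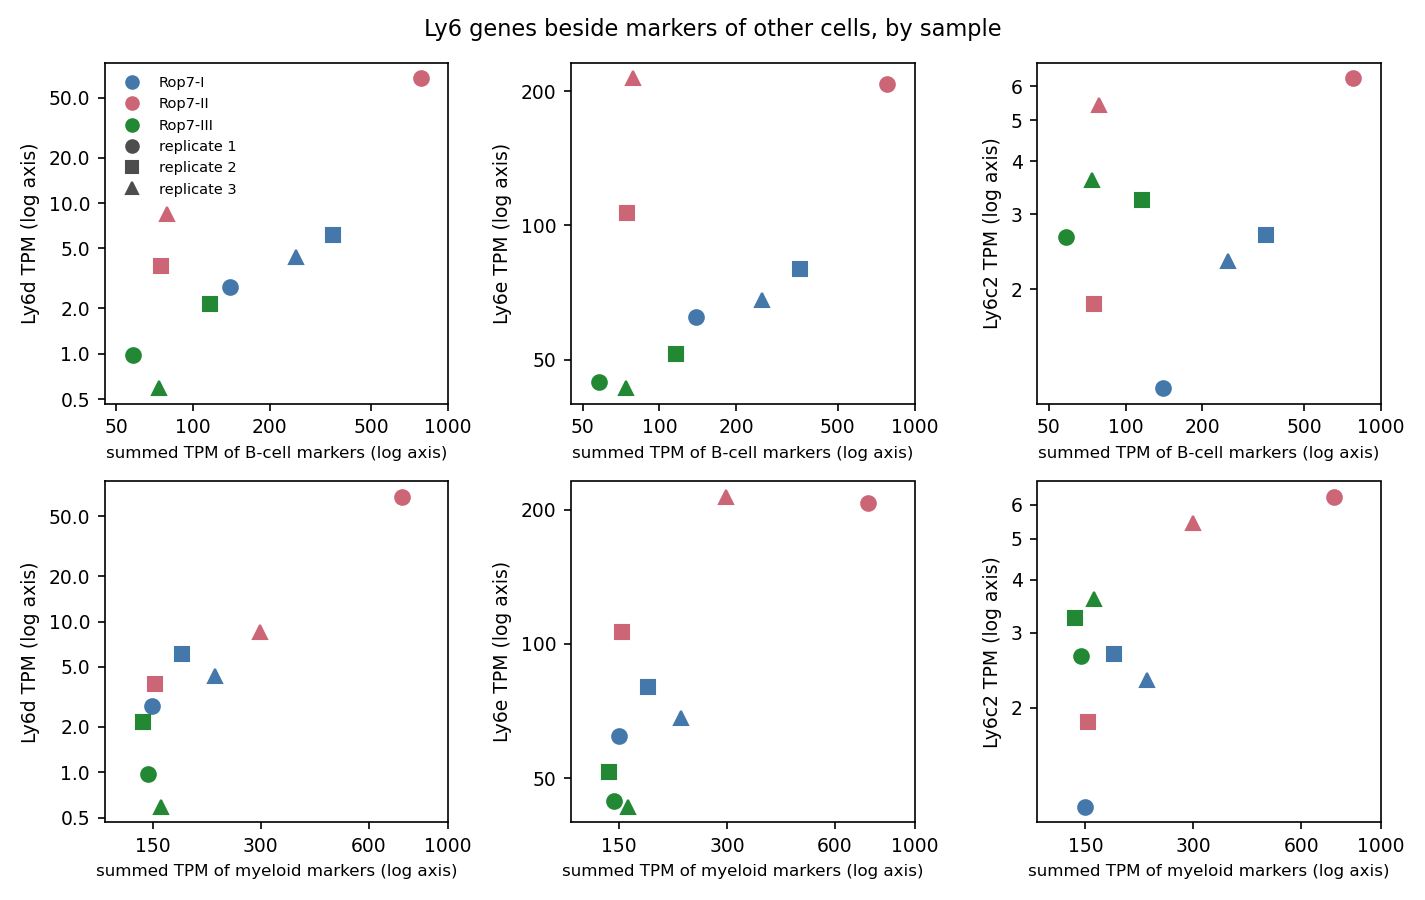
TPM of Ly6d, Ly6e and Ly6c2 (vertical axes, log) in the 9 samples, set against the summed TPM of 10 B-cell markers (upper row) and of 7 myeloid markers (lower row; horizontal axes, log); colours stand for clones and symbols for replicates. Rop7-II replicate 1 lies at the far right of every panel, and Rop7-II replicate 2 has 106 TPM of Ly6e at B-cell and myeloid marker sums within the range of the other clones. Its neutrophil markers, not plotted, summed to 20.6 TPM, above all samples of the other clones.

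Markers of further cells followed several patterns. Neutrophil markers summed to 51.2, 20.6 and 47.6 TPM in Rop7-II replicates 1 to 3 and to at most 19.7 TPM elsewhere, with S100a9 the most abundant, at 30.9, 13.4 and 25.7 TPM in Rop7-II. Elane, a defining gene of neutrophil precursors, was listed at 0 in all samples. The plasma-cell list again set Rop7-II replicate 1 apart, with 5 of 5 genes highest there, and summed to 71.4 TPM in it and to between 7.02 and 41.4 TPM in the others, led by Mzb1. The NK-cell list reached at most 1.70 TPM in a sample, with Ncr1 at most at 1.19 TPM. The list for plasmacytoid dendritic cells was led by Ccr9, which CD8 T cells also carry, with between 185 and 255 TPM. Erythroid genes were highest in Rop7-I replicate 2, at a sum of 1408 TPM against between 15.2 and 286 TPM elsewhere, led in that sample by Hba-a2, an alpha-globin gene, at 842 TPM. In limma 0 genes of the B-cell, myeloid, neutrophil, NK-cell, plasma-cell, erythroid and plasmacytoid dendritic lists, 34 tested genes together, were called in any pair with all 9 samples. At an unadjusted p under 0.05 there were 12, 2 and 4 of the 34 in Rop7-III against Rop7-II, Rop7-III against Rop7-I and Rop7-I against Rop7-II. Beside them, 37.8%, 28.0% and 32.1% of all tested genes were under it, so that the 34 pooled did not exceed the share of all genes. Single lists did exceed it. They were the myeloid and neutrophil lists in Rop7-III against Rop7-II and the plasmacytoid dendritic list, with 1 of 3, in Rop7-III against Rop7-I. In Rop7-I against Rop7-II they were the neutrophil list, with 2 of 3, and the erythroid list, with 2 of 5. The 12 held 6 of the 7 myeloid markers, all 3 tested neutrophil markers and 0 of the B-cell markers. The median log2 fold change of the B-cell list was -0.91, -1.43 and 0.41 in the same pairs, and 0.13, -1.43 and 1.51 without Rop7-II replicate 1, an alternative for lists that was chosen after seeing the data, so that the first changed sign with a single library. For Rop7-III against Rop7-II the medians of the myeloid and neutrophil lists were -1.61 and -2.32 with all samples and stayed below 0 without that library, at -0.84 and -1.99. Without that library 1 gene of the plasma-cell list was called higher in Rop7-I against Rop7-II, and 1 of the plasmacytoid dendritic list was called lower in Rop7-III against Rop7-I. The 4 genes of the CD4 T-cell list had a median of -0.74 for Rop7-III against Rop7-II and of -0.12 without Rop7-II replicate 1, with Cd4, Zbtb7b, a factor of the CD4 lineage, and Foxp3, of regulatory T cells, all below 0 and not called with all samples. In the same list Cd40lg, the ligand of CD40, was called higher in Rop7-III than in either other clone, at 0.0733 ± 0.0635, 0.347 ± 0.310 and 3.20 ± 0.434 TPM for Rop7-I, Rop7-II and Rop7-III (SD, n = 3 each).

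As several Ly6 genes respond to interferon, 52 tested interferon-stimulated genes were set beside them. At an unadjusted p under 0.05 there were 26, 36 and 30 of the 52 in Rop7-III against Rop7-II, Rop7-III against Rop7-I and Rop7-I against Rop7-II. In the same pairs 37.8%, 28.0% and 32.1% of all tested genes were under it. In Rop7-III against Rop7-II T cells limma called 0 of the 52, and the median log2 fold change was -0.16. Without a fold minimum 2 were higher and 4 were lower at an adjusted p under 0.01, where 6.39% of all tested genes were higher and 5.89% lower. In Rop7-III against Rop7-I T cells 4 were called lower and 16 were lower at an adjusted p under 0.01, with 0 higher and a median of -0.38, beside 2.58% of all tested genes higher and 2.28% lower. In Rop7-I against Rop7-II T cells 1 was called higher and 11 were higher at an adjusted p under 0.01, with 0 lower and a median of 0.26, beside 3.67% of all tested genes higher and 3.85% lower. Gbp2, an interferon-induced GTPase, stood at 87.2 ± 8.50, 64.1 ± 2.54 and 46.6 ± 1.72 TPM in Rop7-I, Rop7-II and Rop7-III T cells (SD, n = 3 each). Igtp, another such GTPase, had the same order of means, with 172 ± 17.5, 105 ± 16.0 and 74.8 ± 4.12 TPM. The highest clone was thus Rop7-I for these 2 genes and Rop7-II for Ly6e, while Ly6e and both GTPase genes were lowest in Rop7-III. Without Rop7-II replicate 1, 2 genes of the list were called lower in Rop7-III against Rop7-II, 6 lower in Rop7-III against Rop7-I and 2 higher in Rop7-I against Rop7-II. At an adjusted p under 0.01 with no fold minimum, 3 were then higher and 11 lower in the first of these pairs, 1 higher and 27 lower in the next and 11 higher and 0 lower in the last. Of all tested genes in that fit, 5.9%, 3.35% and 3.5% were higher and 4.66%, 3.14% and 3.19% lower at that limit in the same order of pairs. Those called with the fold minimum numbered 218, 151 and 145 of 12115.

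Of 31 tested genes for the enzymes that make and attach the GPI anchor, 0 were called in limma in any pair, with 10, 7 and 11 at an unadjusted p under 0.05 in Rop7-III against Rop7-II, Rop7-III against Rop7-I and Rop7-I against Rop7-II, where 37.8%, 28.0% and 32.1% of all tested genes were under it. The list summed to between 1056 and 1112 TPM in every sample. The smallest adjusted p values were those of Pigo, at -0.26 for Rop7-III against Rop7-II (adjusted p = 0.00412), Piga, at -0.49 for Rop7-III against Rop7-I (adjusted p = 0.00482), and Pigc, at 0.30 for Rop7-III against Rop7-II (adjusted p = 0.00694), all on the log2 scale and under 2-fold.

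The 15 tested genes linked to self-reactivity, listed because Ly6C and CD5 are read as opposite marks of it, gave 3 called higher and 1 called lower in Rop7-III against Rop7-II, 3 higher and 0 lower in Rop7-III against Rop7-I, and 0 in limma in Rop7-I against Rop7-II T cells, where 4 had an unadjusted p under 0.05, beside 32.1% of all tested genes. Of all tested genes, 117 of 12115 were called higher and 89 lower in the first pair and 74 and 54 in the next. Without Rop7-II replicate 1 the list had 0 called lower in Rop7-III against Rop7-II and 1 called higher in Rop7-I against Rop7-II. The 3 called higher in both were Cd5, Cd6, a receptor related to CD5, and Ubash3b, a phosphatase that limits receptor signalling. The list was drawn up with the levels of Cd5 in these samples known. Of 24 tested genes of memory CD8 T cells, on which Ly6C is abundant, 5 rose and 1 fell past the call in Rop7-III against Rop7-II, 1 higher in Rop7-III against Rop7-I, and 1 higher and 1 lower in Rop7-I against Rop7-II T cells. Crip1, which encodes a small LIM-domain protein, stood at 531 ± 189 TPM in Rop7-II and at 65.7 ± 7.41 and 67.2 ± 1.80 TPM in Rop7-I and Rop7-III T cells (SD, n = 3 each), high in the clone in which Ly6e and Lynx1 were high. The chemokine gene Ccl5 was highest in Rop7-III, at 7.74 ± 1.13, 4.14 ± 2.12 and 28.8 ± 2.12 TPM for Rop7-I, Rop7-II and Rop7-III, and Eomes, a transcription factor of memory cells, was highest in Rop7-I, at 14.1 ± 2.88, 2.34 ± 0.796 and 6.82 ± 1.32 TPM in the same order (SD, n = 3 each). Without Rop7-II replicate 1 the memory list had 6 called higher and 1 lower in Rop7-III against Rop7-II. It then had 3 called genes in Rop7-III against Rop7-I and 4 in Rop7-I against Rop7-II T cells. In that fit 218, 151 and 145 of all 12115 tested genes were called in these pairs.

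The 7 genes lie on chromosome 15 of GRCm38 within 364211 bases, in the order Lynx1 (chr15:74747856-74752979), Ly6d (chr15:74762056-74763567), Ly6k (chr15:74796874-74799968), Ly6e (chr15:74955025-74959904), Ly6a (chr15:74994877-74998031), Ly6c1 (chr15:75044018-75048920) and Ly6c2 (chr15:75108161-75112066). The called genes were not next to each other throughout, as Ly6d lies between Lynx1 and Ly6k. Within 1 Mb of this span, 27 genes of the table were tested, 8 of them of the Ly6/uPAR superfamily, which are the 7 members and Ly6i. Of the other 19 genes, 0 were called in limma in any pair, and 8, 6 and 10 had an unadjusted p under 0.05 in Rop7-III against Rop7-II, Rop7-III against Rop7-I and Rop7-I against Rop7-II. That limit was met by 37.8%, 28.0% and 32.1% of all tested genes in the same pairs. Of the 443 tested genes on the rest of chromosome 15, 1.13% were called in Rop7-III against Rop7-II and 0.451% in each of the other pairs. Them6, the nearest tested neighbour beside Lynx1, chosen after its values were seen, stood at 41.4, 54.3 and 33.7 TPM in the means of Rop7-I, Rop7-II and Rop7-III. Its log2 fold changes were -0.67 for Rop7-III against Rop7-II (adjusted p = 3.7e-05) and -0.38 for Rop7-I against Rop7-II (adjusted p = 0.00133), under 2-fold and in the order of the clones seen for Ly6e.

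**Figure D4:**
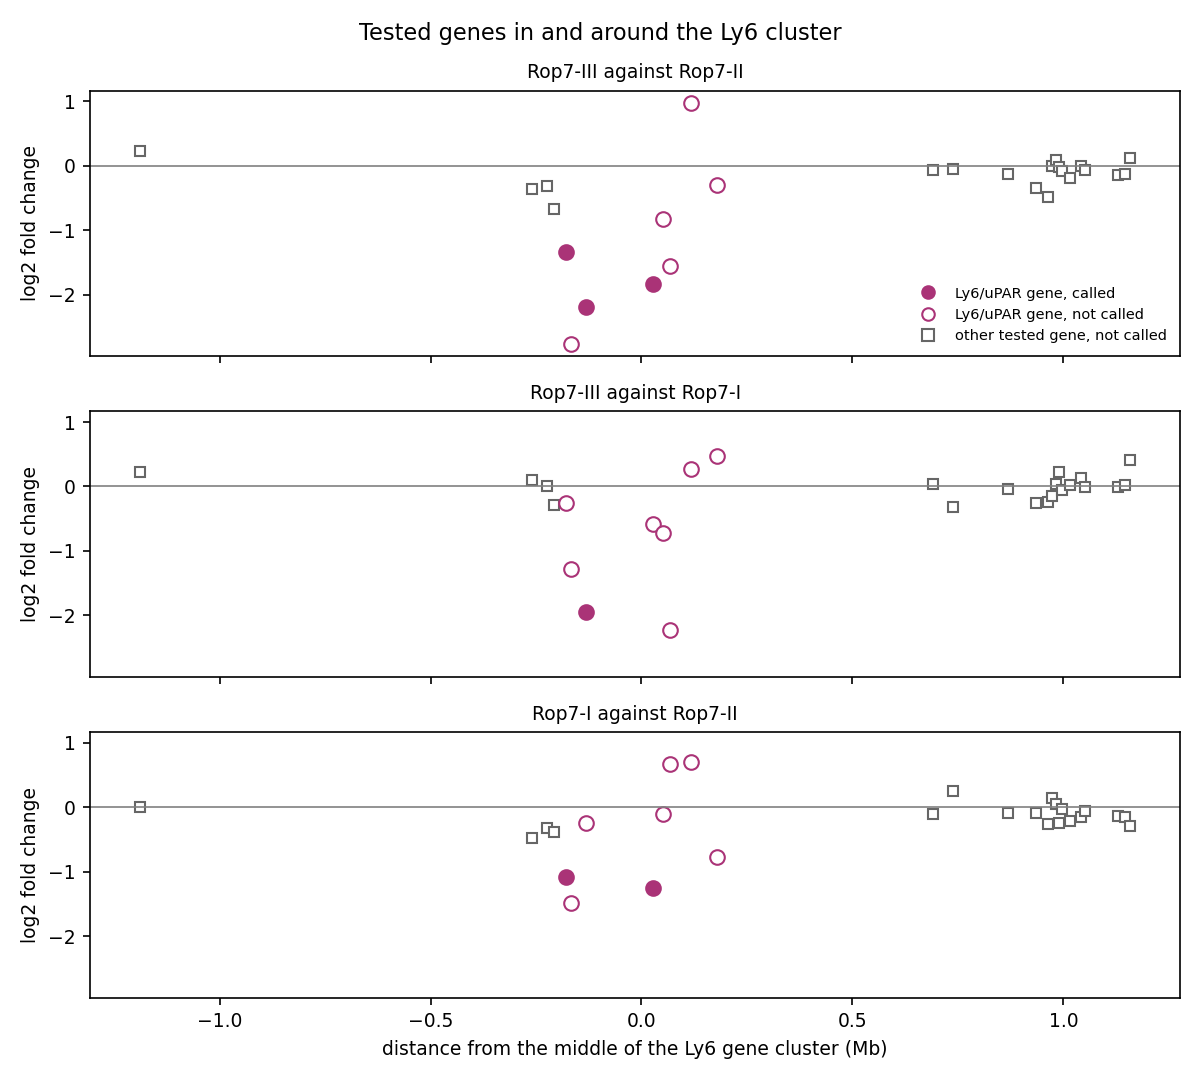
Log2 fold change of TPM + 1 (vertical axes) of the 27 tested genes in and around the Ly6 cluster against the distance from the middle of the cluster in Mb (horizontal axis), for the 3 pairs of clones; round points are Ly6/uPAR genes, squares are other genes, and filled points were called. The called genes are Ly6e, Ly6k and Lynx1, and all 19 squares are open.

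The wider Ly6/uPAR superfamily was represented by 40 genes of the table, of which 15 were listed at 0 in every sample, 14 did not pass the filter and 11 were tested. Of the 4 tested genes beside the members, limma called 0 in any pair. At an unadjusted p under 0.05 there were 3, 1 and 3 in Rop7-III against Rop7-II, Rop7-III against Rop7-I and Rop7-I against Rop7-II. That limit was met by 37.8%, 28.0% and 32.1% of all tested genes. Lypd6b, a relative of Lynx1 that acts on nicotinic receptors, was the most abundant of them, at 59.0 ± 6.39, 50.1 ± 3.72 and 59.8 ± 1.18 TPM in Rop7-I, Rop7-II and Rop7-III T cells (SD, n = 3 each). Plaur, the urokinase receptor, had means of 25.1 ± 2.28, 39.5 ± 10.5 and 28.0 ± 3.56 TPM, highest in Rop7-II. Ly6g5b, of a Ly6 cluster on chromosome 17, stood at 1.95 ± 0.771, 3.33 ± 0.184 and 2.28 ± 0.434 TPM. Ly6i, a neighbour of Ly6a, stood at 0.737 ± 0.360, 0.947 ± 0.753 and 0.0433 ± 0.0751 TPM, and its low values in Rop7-III resemble those of Ly6a and Ly6k, with a log2 fold change of -0.82 against Rop7-II (adjusted p = 0.0748).

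Likeness of pattern was described by Pearson's r of log2(TPM + 1) over the 9 samples, which fall into 3 clones, so that r can follow the clone means or, as for Ly6c1 and Ly6c2, largely the spread within Rop7-II, and no p is given. Among the members themselves r was 0.936 for Ly6e with Lynx1, 0.858 for Ly6d with Ly6e, 0.848 for Ly6d with Lynx1 and -0.0165 for Ly6c1 with Ly6c2. Outside the superfamily, the tested genes most like Ly6e were Lzts2 (r = 0.977), a regulator of Wnt signalling, Mrps7 (0.977), of the mitochondrial ribosome, and Ddr1 (0.976). Ddr1, a collagen receptor, stood at 4.03, 3.70 and 4.51 TPM in Rop7-I replicates 1 to 3, at 18.3, 5.65 and 23.2 TPM in those of Rop7-II and at 2.08, 2.77 and 2.32 TPM in those of Rop7-III, with the same low Rop7-II replicate 2 as Ly6e. Those most like Lynx1 were Tor3a (0.992), an interferon-responsive ATPase, Map4k1 (0.987), a kinase of receptor signalling, and Hnrnpa3 (0.984), an RNA-binding protein. Those most like Ly6k were Zfhx3 (0.989) and 2 genes of unknown function, Gm12505 (0.982) and 1700047I17Rik2 (0.979). Zfhx3, a transcription factor, stood at 0.80, 1.02 and 0.71 TPM in replicates 1 to 3 of Rop7-I, at 0.92, 0.96 and 1.18 TPM in those of Rop7-II and at 0.32, 0.30 and 0.29 TPM in those of Rop7-III.

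For Ly6d the genes most alike were Ptafr (r = 0.990), the receptor of platelet-activating factor, Tpst1 (0.988), a sulfotransferase, and P2ry6 (0.985), a nucleotide receptor, each highest in Rop7-II replicate 1. Ptafr stood at 8.28 TPM there and at between 0.43 and 2.82 TPM in the other samples. For Ly6a they were Klf10 (0.983), Rsad1 (0.959), a radical SAM protein, and Nox1 (0.955), an NADPH oxidase, and the genes most opposite were Zfp622 (-0.985), a zinc finger protein, Fam53b (-0.976), of Wnt signalling, and Cks1b (-0.975), a subunit of cell cycle kinases. Klf10, a transcription factor induced by TGF-beta, stood at 4.31, 4.07 and 4.16 TPM in replicates 1 to 3 of Rop7-I, at 4.58, 3.42 and 3.54 TPM in those of Rop7-II and at 2.75, 3.10 and 2.37 TPM in those of Rop7-III, a much narrower range than that of Ly6a. For Ly6c1 they were Lpgat1 (0.982), an acyltransferase, and Snx30 (0.977), a sorting nexin. For Ly6c2 they were Atxn7l2 (0.946), an ataxin-like protein, Zfpl1 (0.929), of the Golgi, and Vrk1 (0.923), a nuclear kinase, and genes with an opposite pattern were Wdr46 (-0.937), of the nucleolus, and B3galt4 (-0.920), a galactosyltransferase.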

How the data were processed

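Per the labels, sorted CD8 T cells gave 200 ng of RNA per sample for unstranded libraries of polyadenylated RNA, at a stated purity of 90 to 95%. The authors counted reads with RSEM 1.2.11 on RefSeq genes of mm10 and deposited TPM for 24060 genes, which hold no counts. Their own tests used counts. Here log2(TPM + 1) of the 12115 genes with a maximum TPM over 1, the limit the authors used, was fitted with limma 3.58.1 in R 4.3.3, in a single fit of the 3 clones that let the variance follow expression and had no block, two-sided, with Benjamini-Hochberg adjustment over all tested genes. Every adjusted p is from limma. The added 1 makes fold changes of weakly expressed genes smaller.

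The members and the gene lists were chosen with earlier results of these data known. Named genes were the members, superfamily genes over 1 TPM, Cd5, Nr4a1, up to 3 genes most like each member (and most opposite to Ly6a and Ly6c2), up to 3 with the lowest adjusted p of lists, called neighbours and the leading markers of other cells; any others were chosen after their values were seen. Positions came from RefSeq (GRCm38.p6) for 12069 tested genes. Transcripts were those of GENCODE M21, not the annotation used for counting, and were aligned with Biopython 1.88. Alternatives were another pseudocount, filter, scaling, trend, weighting, set of clones, replicate block, threshold, and each sample left out.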

Additional observations from a re-analysis of the deposited data

How the results depend on the processing

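All 384 values of the members' log2 fold changes under the alternatives kept their sign. Of these, 353 stayed on the same side of the call, 24 fell short of it and 7 newly passed it. The calls of Ly6e, Ly6k and Lynx1 in Rop7-III against Rop7-II held in every alternative that could test them. With only the genes that reached a TPM of 1 in all samples, 2 of the 7 genes were left to test. The members called then numbered 1 in Rop7-III against Rop7-II, 0 in Rop7-III against Rop7-I and 1 in Rop7-I against Rop7-II. Of all 10544 genes tested under that filter, 138, 79 and 82 were called in the same pairs. In Rop7-I against Rop7-II 1 member was called with no filter, 1 with no trend, 1 with sample weights and 0 in a fit of these clones alone, in place of 2. Of all tested genes, 103 of 16934 with no filter, 101 of 12115 with no trend and 122 of 12115 with sample weights were called in that pair. In Rop7-III against Rop7-I 2 members were called with sample weights and 2 in a fit of these clones alone, in place of 1. Of all 12115 tested genes, 148 and 151 were called there. At an adjusted p under 0.05 the members called were 5 in Rop7-III against Rop7-II and 2 in Rop7-III against Rop7-I, beside 246 and 157 of all 12115 tested genes. Without a fold minimum 1488, 588 and 912 genes in all were called in Rop7-III against Rop7-II, Rop7-III against Rop7-I and Rop7-I against Rop7-II. With each sample left out in turn, the members called ranged from 3 to 4 in Rop7-III against Rop7-II, from 0 to 2 in Rop7-III against Rop7-I and from 0 to 2 in Rop7-I against Rop7-II, and the genes called in all from 170 to 238, from 83 to 151 and from 92 to 145. Of 39 counts of called genes in the other lists, 7 moved by over 1.5 times or from or to 0 without Rop7-II replicate 1. The cause of these shifts was not tested, apart from the fewer genes or samples that some alternatives leave.

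Samples with the same replicate number in different clones did not deviate together from their clone means (r from -0.388 to 0.106 over 9 pairs, 1 of them over 0.1). The labels do not say what the numbers stand for, and a shared day or batch was not tested. With the replicate number as a block 1 member, in place of 2, was called in Rop7-I against Rop7-II, as Ly6e was then at an adjusted p of 0.0194, and the block changed no other call of a member. TPM with no counts limit what can be said of genes at or near 0, such as Ly6k in Rop7-III.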
